A study of Homo sapiens with 6 samples.

Results

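Gluconeogenesis turns lactate, alanine and other small carbon sources back into glucose, and it uses dedicated enzymes at the 3 places where glycolysis cannot run in reverse. The genes described here are 6 that encode such enzymes. PCK1 and PCK2 encode phosphoenolpyruvate carboxykinase, FBP1 and FBP2 fructose-1,6-bisphosphatase, and G6PC and G6PC3 glucose-6-phosphatase. Pyruvate carboxylase (PC), which acts before phosphoenolpyruvate carboxykinase, and G6PC2 are not among the 6 and are described further below. The 6 genes were chosen by symbol from the 56638 symbols of the count tables. All 6 have a row, and 4 of the 6 had a count in at least 1 library. Of the 6 genes, 4 passed the filter on low counts and 3 averaged 1 CPM or more, CPM being a gene's counts for every 1000000 counts of its library. Because the members were named with earlier results of these data known, their changes are given as measurements and are not used as support for the choice.

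RNA was sequenced from human colorectal cancer cells transfected with siRNA, a short duplex that directs cleavage of a matching transcript. The titles put 3 libraries in a group with control siRNA and 3 in a group with siRNA against GLCC1, a long non-coding RNA, and the cells of both groups are otherwise described alike, with no other allele or agent. The labels name the line SW480, whereas the methods of the study name DLD-1 for the sequenced knockdown; both are established lines from colorectal adenocarcinoma, and which was sequenced was not tested. The titles number the siRNA of each group 1 to 3, while the genotype label gives siRNA1 for every library of a group, so the numbers were read as replicates; whether they mark different siRNAs was not tested. Because that label reads siRNA1 in the control group as well, it does not settle which of the study's GLCC1 siRNAs was used. The labels do not say that the replicates were separate cultures. The p-values therefore measure only the spread between these libraries, which may be technical.

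The labels disagree about the groups. A second label, the library name, attaches to each group the siRNA of the other, so that the libraries titled control carry the lncRNA's name and those titled GLCC1 siRNA carry the name of the negative control. GLCC1 has no row of its own in the tables. A 100-base stretch of its published sequence matched the reference at a single place, hg19 chr13:99049569-99049668 on the plus strand, inside FARP1 (hg19 chr13:98794816-99107430, plus strand). Whether that place lies in an exon of FARP1, where reads of GLCC1 could be counted for FARP1, was not tested. FARP1 stood at 108.7, 110.0 and 112.9 CPM in the libraries titled control. It stood at 63.2, 65.6 and 65.5 CPM in those titled GLCC1 siRNA. The groups follow the titles below, and "the GLCC1 siRNA libraries" means those titled so. Under the library names every direction given would turn.

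The libraries held 11948790 to 19042516 counts assigned to genes, and GLCC1 siRNA replicate 2 was the smallest of the 6. Among tallied reads with a unique alignment, 11.2% to 11.5% lay in no annotated feature in the control libraries. In the GLCC1 siRNA libraries that share was 12.5% to 14.2%. The 10 most abundant genes took 6.97% to 7.24% of the counts in the controls and 5.80% to 6.62% in the GLCC1 siRNA libraries. No pair of libraries was a copy of another, and GLCC1 siRNA replicate 2 stood apart: the chi-square per degree of freedom of its counts against its group was 18.1 and 19.0, beside 3.28 for the other pair of that group and 1.93 to 4.16 among the controls. It held the GLCC1 siRNA value nearest to the controls for PCK2 and PCK1 and the one farthest from them for G6PC3, and the values without it stand beside these genes.

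Hepatocytes, kidney proximal tubule cells and, to a lesser extent, enterocytes are the textbook sites of the whole route. PCK1 is the cytosolic and PCK2 the mitochondrial form of phosphoenolpyruvate carboxykinase, which makes phosphoenolpyruvate from oxaloacetate; FBP1 is the liver and FBP2 the muscle form of fructose-1,6-bisphosphatase; G6PC is the glucose-6-phosphatase of liver and kidney, and G6PC3 is its widely expressed relative. PCK2 is also a known target of the stress-responsive transcription factor ATF4, and G6PC3 is known for clearing a toxic sugar phosphate in neutrophils, so neither marks glucose production by itself.

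Of the 6 genes, 3 differed between the groups, PCK2 upwards and PCK1 and G6PC3 downwards, 1 (FBP2) did not pass the test, and 2 (FBP1 and G6PC) had no count in any library. PCK2 was 1.60-fold higher in the GLCC1 siRNA libraries, PCK1 was at 0.274 and G6PC3 at 0.400 of the control level. These calls are read against the whole table: edgeR's quasi-likelihood test called 7293 of 23074 tested genes at an adjusted p under 0.05, which is 31.6%, with 14.9% higher and 16.7% lower in the GLCC1 siRNA libraries, and the median log2 fold change of all tested genes was 0.03. In 10684 of the tested genes, 46.3%, the groups did not overlap at all. A call in these libraries is therefore common, and 3 calls among 4 tested genes carry no statement about the route as a set. Scaling by library totals alone in place of the trimmed mean of M values (TMM) moved the median of all genes by 0.12 on the log2 scale and the share of called genes that were higher from 47.0% to 62.9%. In a bulk sample, fewer cells of a kind and less RNA per cell cannot be told apart.

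The phosphoenolpyruvate carboxykinase step was represented almost wholly by PCK2 (hg19 chr14:24563262-24579807, plus strand, 10 exons in its canonical transcript). Its counts were 1155, 1566 and 1335 in the control libraries and 2451, 1474 and 2654 in the GLCC1 siRNA libraries. Divided by TMM-scaled library size, these were 79.2, 86.3 and 80.4 CPM against 127.8, 117.2 and 148.5 CPM. All 3 GLCC1 siRNA libraries stood above all 3 controls, and the smallest library, GLCC1 siRNA replicate 2, was the lowest of its group. The means were 82.0 ± 3.80 CPM and 131 ± 15.9 CPM (SD, n = 3 each), a log2 fold change of 0.68 with a standard error of 0.10 (edgeR adjusted p = 0.000139). Without GLCC1 siRNA replicate 2 it was 0.76. The exact two-sided permutation test on the CPM values gave p = 0.1, the smallest that 3 libraries against 3 allow. The gene lies within the span of NRL on the opposite strand but shares no exonic base with it, and NRL had 13 to 25 counts in a library.

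PCK1 (hg19 chr20:56136136-56143177, plus strand, 10 exons) was near the lower end of what the libraries could measure. It had 22, 31 and 29 counts in the control libraries and 7, 10 and 5 in the GLCC1 siRNA libraries, 104 counts in all 6. As CPM these were 1.51, 1.71 and 1.75 against 0.365, 0.795 and 0.280. The groups did not overlap, although the highest GLCC1 siRNA library, replicate 2, stood at over 2 times the other libraries of its group. The means were 1.65 ± 0.128 and 0.480 ± 0.276 CPM (SD, n = 3 each), and the log2 fold change was -1.87 with a standard error of 0.37 (edgeR adjusted p = 0.00149; exact permutation p = 0.1). Without GLCC1 siRNA replicate 2 the log2 fold change was -2.33.

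**Figure D1:**
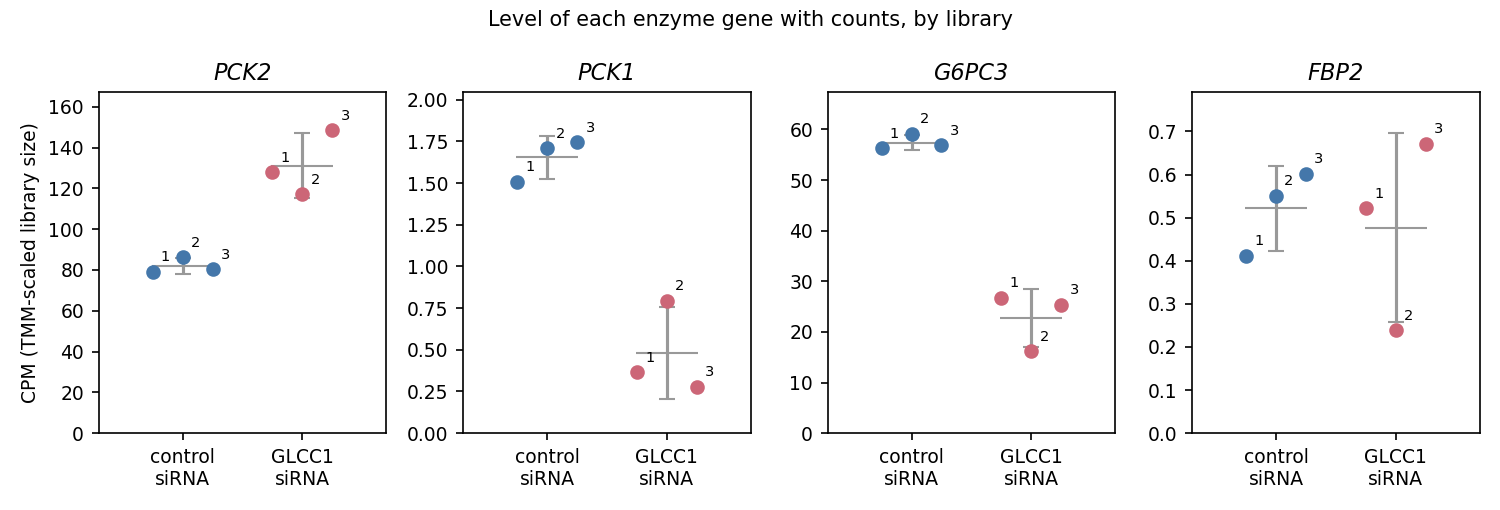
Level of the 4 genes with counts in each library, in CPM of TMM-scaled library size on linear axes from 0, by siRNA group; points are libraries numbered by replicate, and grey bars are the mean and SD of 3. The PCK2 points of the GLCC1 siRNA libraries (117.2 to 148.5) lie above the controls (79.2 to 86.3), those of PCK1 and G6PC3 lie below them, and those of FBP2 overlap.

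Since the isozymes catalyse the same reaction in different compartments, their levels were also set beside each other per kilobase of canonical transcript. PCK2 made up 99.05%, 99.01% and 98.92% of the summed PCK1 and PCK2 level in the control libraries and 99.86%, 99.66% and 99.91% in the GLCC1 siRNA libraries. The share was already near its ceiling in the controls, and the groups did not overlap. The means were 98.99% ± 0.068 and 99.81% ± 0.130 (SD, n = 3 each), a difference of 0.815 percentage points (exact permutation p = 0.1). Per kilobase, PCK2 stood 91.3 to 104 times above PCK1 in the control libraries and 292 to 1052 times above it in the GLCC1 siRNA libraries. The transcript that places the enzyme in mitochondria was thus the abundant form in every library, in both groups.

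At the fructose-1,6-bisphosphatase step, FBP1 (hg19 chr9:97365415-97402531, minus strand, 7 exons) had 0 counts in all 6 libraries. A count of 0 allows a level of up to 0.106 to 0.162 CPM per kilobase, depending on the library, taking 3 counts as the limit and covering counting error only. FBP2 (hg19 chr9:97321002-97356106, minus strand, 7 exons) had 6, 10 and 10 counts in the control libraries and 10, 3 and 12 in the GLCC1 siRNA libraries. As CPM these were 0.411, 0.551 and 0.602 against 0.521, 0.239 and 0.671, so the groups overlapped, with the highest and the lowest value both in GLCC1 siRNA libraries. The log2 fold change was -0.08 with a standard error of 0.46 (edgeR adjusted p = 0.909; exact permutation p = 0.8), and with 51 counts in all a change of the size seen for PCK2 lies within 2 standard errors of this value. Both genes overlap PCAT7 in their exons, over 14.8% of the exonic bases of FBP1 and 18.2% of those of FBP2, and PCAT7 itself had 20 to 32 counts. The strand setting of the counting is not given in the sources used here, and the union mode leaves out reads that fall on more than 1 gene.

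At the glucose-6-phosphatase step, G6PC (listed as G6PC1 in the annotation, hg19 chr17:41052814-41066455, plus strand, 5 exons), the form that liver and kidney use to release glucose, had 0 counts in all 6 libraries, which allows up to 0.0376 to 0.0573 CPM per kilobase. G6PC3 (hg19 chr17:42147988-42159519, plus strand, 6 exons) was readily measured. Its counts were 821, 1073 and 944 in the control libraries and 513, 203 and 453 in the GLCC1 siRNA libraries, or 56.3, 59.1 and 56.9 CPM against 26.8, 16.2 and 25.3 CPM. The controls were tightly grouped, all 3 GLCC1 siRNA libraries stood below them, and replicate 2 was the lowest. The means were 57.4 ± 1.50 and 22.7 ± 5.76 CPM (SD, n = 3 each), and the log2 fold change was -1.32 with a standard error of 0.15 (edgeR adjusted p = 1.54e-05; exact permutation p = 0.1). Leaving out GLCC1 siRNA replicate 2 gave -1.14. Per kilobase of canonical transcript, G6PC3 was at least 179-fold higher than G6PC in each library, with G6PC taken at that limit. The fold is smaller over the union of all annotated exons. On that length G6PC3 stood at 7.38 to 7.75 CPM per kilobase in the controls and at 2.12 to 3.51 in the GLCC1 siRNA libraries. Of the exonic bases of G6PC3, 23.9% also lie in HDAC5 on the opposite strand, and HDAC5 had a log2 fold change of -0.07 (edgeR adjusted p = 0.662).

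The start regions of the 2 abundant members are shown because the genes moved in opposite directions. Each window runs from 250 bases before to 50 bases after the start of transcription in RefSeq (GRCh38.p14, 5′ to 3′ on the strand of the gene), and 5 of the 6 genes matched an entry, PCK1 being the one without. Capitals mark matches to the motifs searched on both strands, which were CACGTG (an E-box), TGATGNAA (a core of sites read by ATF4 with a partner) and TGACGTCA (the cyclic AMP response element). The window of G6PC3 spans chr17:44070423-44070722 on the plus strand and that of PCK2 spans chr14:24094061-24094360 on the plus strand.
G6PC3: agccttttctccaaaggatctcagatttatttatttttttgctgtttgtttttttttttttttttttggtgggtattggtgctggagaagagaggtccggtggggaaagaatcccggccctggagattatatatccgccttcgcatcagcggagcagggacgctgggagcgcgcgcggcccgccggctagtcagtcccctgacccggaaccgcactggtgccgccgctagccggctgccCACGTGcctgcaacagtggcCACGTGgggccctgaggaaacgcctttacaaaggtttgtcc
PCK2: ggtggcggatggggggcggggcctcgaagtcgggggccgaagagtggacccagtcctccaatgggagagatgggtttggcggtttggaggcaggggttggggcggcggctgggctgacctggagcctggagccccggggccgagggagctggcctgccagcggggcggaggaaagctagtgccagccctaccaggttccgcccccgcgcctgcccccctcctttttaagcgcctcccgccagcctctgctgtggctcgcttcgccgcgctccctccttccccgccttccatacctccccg
The G6PC3 window holds CACGTG 2 times, at positions -11 to -6 and 9 to 14 with the first transcribed base counted as 0, and the windows of its other RefSeq starts hold the same 2 copies. Of 35116 RefSeq promoter windows of this length, 7.26% held CACGTG and 0.664% held it 2 or more times. The PCK2 window held none of the 3 motifs, nor did those of FBP1 and FBP2, and that of G6PC held TGATGNAA on its minus strand at -137 to -130, a motif present in 3.62% of the windows. These are matches of letters, not sites of binding, and an absent match concerns only these letters in these 300 bases.

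Set in order per kilobase of canonical transcript in the control libraries, the genes fell into an abundant pair and a scarce remainder. PCK2 stood at 36.3 to 39.6 and G6PC3 at 35.8 to 37.6 CPM per kilobase, ranges that overlap, whereas in the GLCC1 siRNA libraries PCK2 at 53.8 to 68.1 lay apart from G6PC3 at 10.3 to 17.0. FBP2 at 0.308 to 0.451 and PCK1 at 0.349 to 0.404 overlapped in the controls, and the GLCC1 siRNA libraries held 0.179 to 0.502 for FBP2 and 0.0647 to 0.184 for PCK1. FBP1 and G6PC came last with no counts. The near-equal levels of PCK2 and G6PC3 in the controls depended on the length used: over the union of all annotated exons, which for G6PC3 includes retained introns, PCK2 stood at 19.0 to 20.7 and G6PC3 at 7.38 to 7.75 CPM per kilobase. Among 17659 tested genes with a length, PCK2 ranked 1414 by mean level, with 92.0% of them below it, and G6PC3 ranked 3051, with 82.7% below it, while FBP2 and PCK1 ranked 14348 and 14973.

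**Figure D2:**
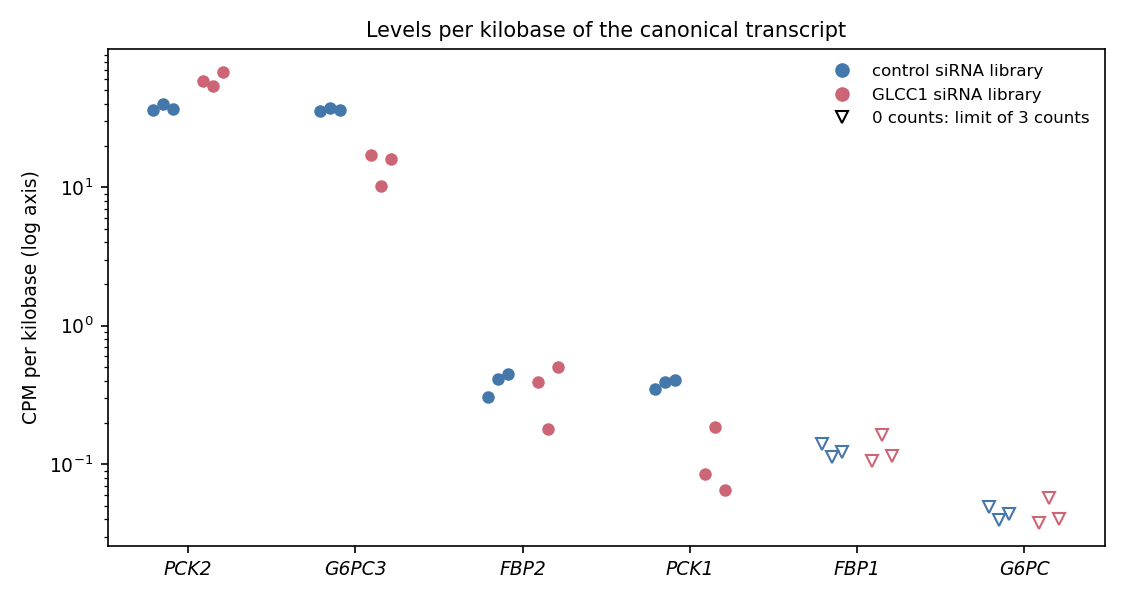
Level of the 6 genes in each library, in CPM per kilobase of canonical transcript on a log axis, by siRNA group; points are libraries and open triangles give the level that a count of 0 allows. PCK2 and G6PC3 lie at 10.3 to 68.1, FBP2 and PCK1 at 0.0647 to 0.502, and FBP1 and G6PC were not detected in any of the 6 libraries.

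The members were next set against the glycolytic enzymes that they bypass, as ratios of summed levels per kilobase. Pyruvate kinase is bypassed by PC and phosphoenolpyruvate carboxykinase together, and PC was not part of the ratio. This comparison was chosen after the members' values were seen. Phosphoenolpyruvate carboxykinase stood at 2.51%, 2.48% and 2.40% of pyruvate kinase in the control libraries and at 5.12%, 5.43% and 5.59% in the GLCC1 siRNA libraries. The groups did not overlap, and their means were 2.46% ± 0.055 and 5.38% ± 0.240 (SD, n = 3 each), 2.18-fold apart (exact permutation p = 0.1). Part of that fold lies in the denominator, since PKM, the main pyruvate kinase here, fell by 0.46 on the log2 scale (edgeR adjusted p = 0.000992).

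Fructose-1,6-bisphosphatase made up 0.117%, 0.144% and 0.163% of phosphofructokinase in the controls and 0.139%, 0.0795% and 0.173% in the GLCC1 siRNA libraries, values that overlap (exact permutation p = 0.8). Glucose-6-phosphatase stood at 22.3%, 20.1% and 20.9% of hexokinase in the controls and at 13.5%, 7.83% and 10.9% in the GLCC1 siRNA libraries. These did not overlap, with means of 21.1% ± 1.12 and 10.8% ± 2.85 (SD, n = 3 each) and a fold of 0.510 (exact permutation p = 0.1). The hexokinase sum was lower too, and within it HK2 fell by 0.51 on the log2 scale (edgeR adjusted p = 0.00103). These percentages used the canonical transcript, and the level of G6PC3 was lower over the union of annotated exons. The phosphoenolpyruvate carboxykinase ratio was almost wholly PCK2 and the glucose-6-phosphatase ratio G6PC3 alone. Their opposite directions restate the changes of those 2 genes and are not a further result. The fructose-1,6-bisphosphatase ratio rested on FBP2 alone, at 3 to 12 counts in a library, too few to decide whether it changed.

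The other genes of the route were taken from lists of its enzymes, carriers and regulators. For these lists and the markers below, the counts of calls stand beside 14.9% higher and 16.7% lower among all tested genes. Where 10 counts were required in every library, 6853 of 14604 genes were called, 3430 higher and 3423 lower. No list was tested as a set. Of 17 genes that lead into phosphoenolpyruvate, PCK1 and PCK2 included, all 17 were tested, 4 rose and 6 fell, and their median log2 fold change was -0.09 beside 0.03 for all tested genes. Pyruvate carboxylase (PC), a source of the oxaloacetate that PCK2 uses, stood at 47.0, 59.5 and 49.9 CPM in the controls. In the GLCC1 siRNA libraries it stood at 54.0, 38.9 and 56.4 CPM, so the groups overlapped (log2 fold change -0.06, standard error 0.14, edgeR adjusted p = 0.754). PCK2 therefore rose without a measured change in the transcript of PC. That of MDH2, on the same list, fell, as given below. GPT and GPT2, the alanine aminotransferases that make pyruvate, had log2 fold changes of 1.26 and 0.40 (edgeR adjusted p = 0.000321 and 0.00389), and GPT was scarce, at 1.85 to 2.59 CPM in the controls and 4.22 to 6.05 CPM in the GLCC1 siRNA libraries. The aspartate-glutamate carrier SLC25A12 also rose, a call lost in 6 of 12 alternatives, among them each left-out library but GLCC1 siRNA replicate 2. Lactate dehydrogenase A (LDHA) fell by 1.79 and mitochondrial malate dehydrogenase (MDH2) by 0.75 on the log2 scale (edgeR adjusted p = 1.14e-08 and 4.36e-05), and GOT2, LDHB and MPC1, the last a subunit of the mitochondrial pyruvate carrier, also fell; with library totals as the scale LDHB and MPC1 lost their calls.

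Between phosphoenolpyruvate and fructose bisphosphate, and again at the hexose phosphate isomerase, the route shares reversible enzymes with glycolysis. Of 15 such genes 12 were tested, 1 rose and 6 fell, with a median log2 fold change of -0.34. ENO3, the muscle enolase, was the one that rose, by 0.67 (edgeR adjusted p = 0.00274), at 8.31 to 10.5 CPM in the controls and 12.3 to 16.3 CPM in the GLCC1 siRNA libraries. The aldolases ALDOC and ALDOA and the dehydrogenase GAPDH fell by 1.90, 0.69 and 0.52 on the log2 scale (edgeR adjusted p = 1.04e-07, 0.000325 and 0.00161), and ENO1, PGK1 and GPI also fell, GPI without a call when library totals set the scale. No called gene among those on the shared steps other than ENO3 had the direction of PCK2.

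The glycolytic enzymes that oppose the 6 members, with the kinases that set fructose 2,6-bisphosphate, counted 14 genes. Of these 12 were tested, 1 rose and 4 fell, with a median of -0.17. HKDC1, a hexokinase-like gene, rose by 1.31 from 1.37 to 2.11 CPM in the controls to 4.28 to 5.20 CPM (edgeR adjusted p = 0.000291). PFKFB3, PFKFB4, HK2 and PKM fell, by 0.76 for PFKFB3 and 0.51 for HK2 (edgeR adjusted p = 4.03e-05 and 0.00103). The 3 phosphofructokinase subunits, which fructose-1,6-bisphosphatase opposes, did not pass the test: PFKL, PFKM and PFKP had log2 fold changes of 0.28, -0.16 and -0.13 (edgeR adjusted p = 0.0939, 0.156 and 0.354). PFKL passed it with library totals as the scale (0.0166), where any gene with at least 1 count was tested (0.0164) and without GLCC1 siRNA replicate 2, where its log2 fold change was 0.43 (edgeR adjusted p = 2.67e-09).

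**Figure D3:**
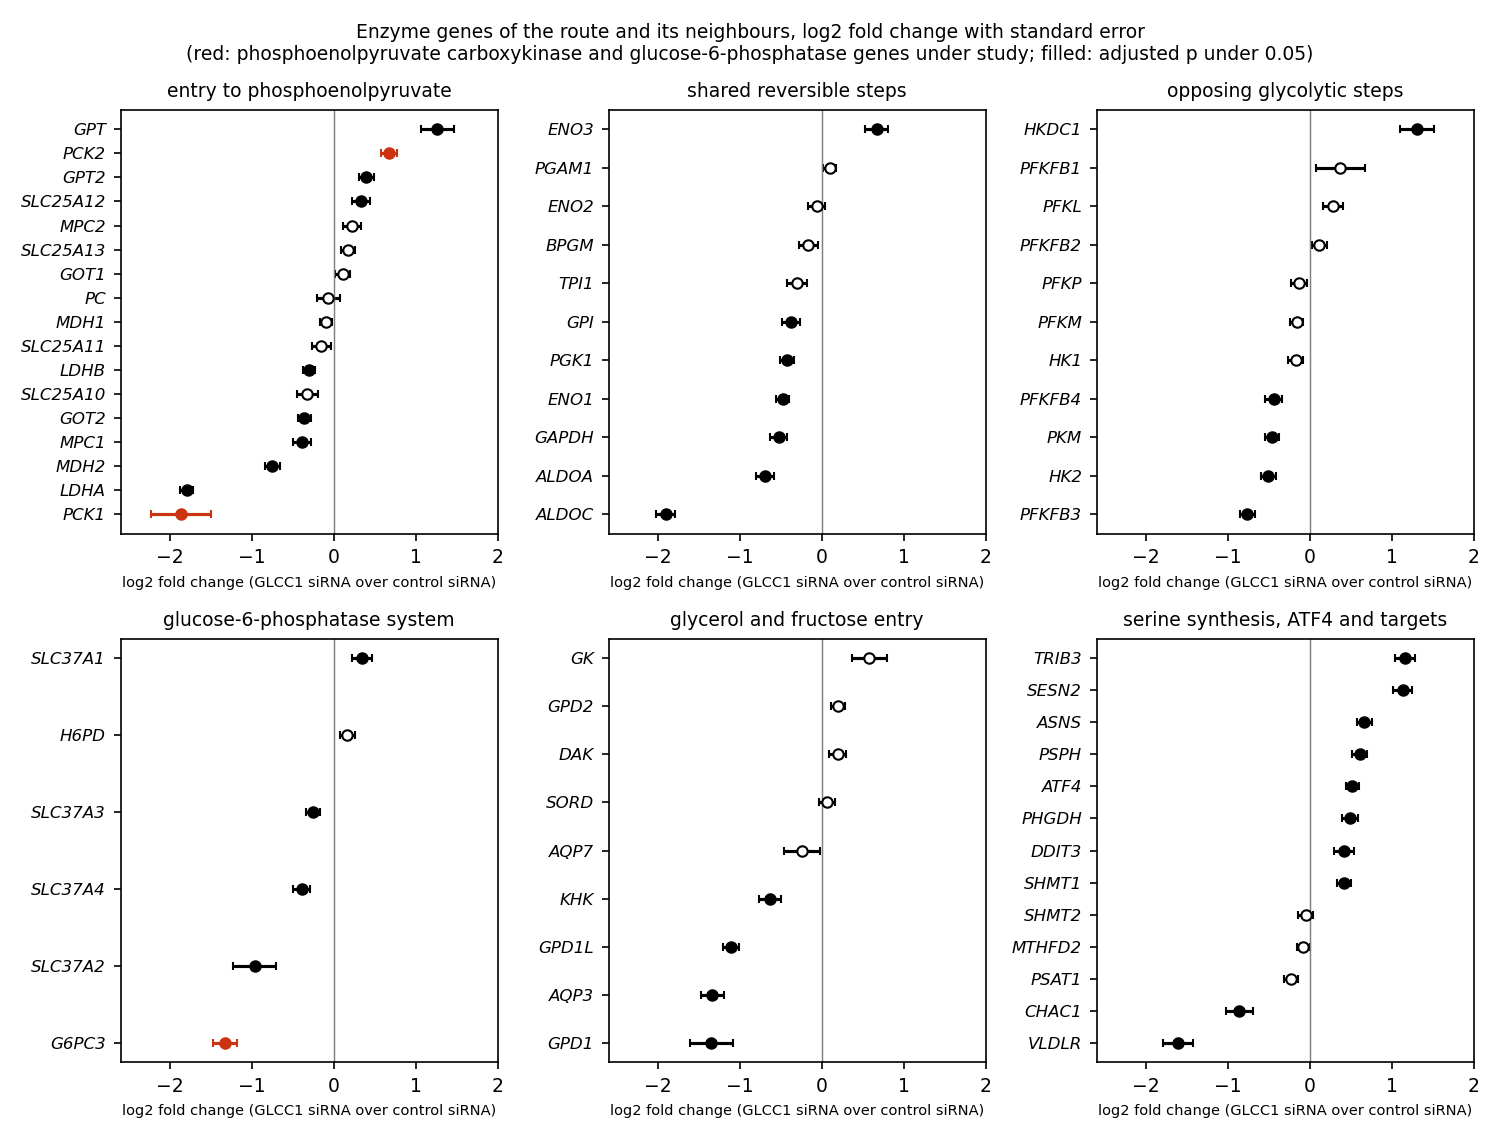
Log2 fold change of GLCC1 siRNA over control siRNA libraries with its standard error (edgeR, 3 libraries a group) for genes of the route and its neighbours that averaged 1 CPM or more, 1 panel a list; PCK2, PCK1 and G6PC3 are red and filled points have an adjusted p under 0.05. PCK2 stands at 0.68 and PCK1 at -1.87 within the first list, and G6PC3 at -1.32 is the lowest of the glucose-6-phosphatase system.

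Glucose-6-phosphatase works inside the endoplasmic reticulum and needs a transporter to bring its substrate there. Of 8 genes of that system, G6PC and G6PC3 included, 6 were tested, 4 fell and 1 rose, and the median log2 fold change was -0.32. SLC37A4, the glucose-6-phosphate transporter, stood at 69.2, 70.0 and 67.0 CPM in the controls and at 58.2, 44.9 and 53.9 CPM in the GLCC1 siRNA libraries. The groups did not overlap, and SLC37A4 fell by 0.39 on the log2 scale with a standard error of 0.10 (edgeR adjusted p = 0.00972), a smaller fall than that of G6PC3; with library totals as the scale the adjusted p was 0.0568. Its relatives SLC37A2 and SLC37A3 fell, SLC37A2 by 0.96 from 2.20 to 2.61 CPM in the controls (edgeR adjusted p = 0.0132), and the call of SLC37A3 was lost in 8 of 12 alternatives. SLC37A1 rose by 0.34 at an adjusted p of 0.0469 in edgeR, and that call was lost with DESeq2 (0.0532) and when any of 5 of the 6 libraries was left out. G6PC2, the form of pancreatic islets, had 0 to 2 counts in a library, and H6PD, which oxidises glucose 6-phosphate in the same compartment, did not pass the test.

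Glycerol and fructose join the route above phosphoenolpyruvate. Of 13 listed genes 12 had a row, 9 were tested, 0 rose and 4 fell in edgeR, with a median of -0.24, while 1 rose in DESeq2 and 2 had an unadjusted edgeR p under 0.05 with a higher level. GPD1 and GPD1L, the glycerol-3-phosphate dehydrogenases of the cytosol, and the glycerol channel AQP3 fell by 1.35, 1.11 and 1.33 on the log2 scale (edgeR adjusted p = 0.00139, 3.29e-06 and 1.04e-05), and fructokinase (KHK) also fell. GPD1 was scarce, at 2.26 to 3.43 CPM in the controls and 0.954 to 1.45 CPM in the GLCC1 siRNA libraries.

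Of 25 transcription factors, coactivators, kinases and receptors known to act on the expression of gluconeogenic genes in liver, 22 were tested, 4 rose and 2 fell, with a median of 0.04. FOXO1, a factor that acts on the liver genes, rose by 0.56 (edgeR adjusted p = 0.000214), and SIK2, a kinase that restrains them, rose by 0.34 (adjusted p = 0.0116). INSR, the insulin receptor, also rose, a call lost in 7 of 12 alternatives. HNF4A and FOXA1 fell by 0.34 and 0.31 (edgeR adjusted p = 0.0320 and 0.0171), and both calls were lost with library totals as the scale. PPARGC1A, the coactivator that drives the program in fasting liver, had 0 to 4 counts in a library.

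PCK2 has known company outside the route, since ATF4 also acts on genes of serine synthesis and amino acid stress. ATF4 stood at 321.5, 311.4 and 330.6 CPM in the controls and at 445.5, 457.8 and 477.9 CPM in the GLCC1 siRNA libraries, with no overlap and a log2 fold change of 0.52 (standard error 0.07, edgeR adjusted p = 0.000131). Of 13 genes in the list of serine synthesis, ATF4 and its targets, all 13 were tested, 8 rose and 2 fell. Among all tested genes 14.9% rose and 16.7% fell. The median of the list was 0.42 beside 0.03 for all tested genes, and the list was written with earlier results of these data known. TRIB3, SESN2 and ASNS, which are known to respond to amino acid stress, rose by 1.16, 1.13 and 0.66 (edgeR adjusted p = 8.64e-06, 6.63e-06 and 0.000111), and PHGDH, PSPH, SHMT1 and DDIT3 also rose. VLDLR and CHAC1, which are ATF4 targets as well, fell by 1.61 and 0.86 (edgeR adjusted p = 1.61e-05 and 0.00118), so the list did not move as 1 block. PSAT1, SHMT2 and MTHFD2 did not pass the test, with log2 fold changes of -0.23, -0.05 and -0.08 (edgeR adjusted p = 0.0502, 0.723 and 0.495). The PSAT1 groups did not overlap, with the lower values in the GLCC1 siRNA libraries. PCK2 at 0.68 lay inside the range of the members that rose, but that range leaves out the members that fell or were not called. Many genes that rose would lie inside it. Whether ATF4 had a part in the rise of PCK2 was not tested.

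Markers of the cell types that could supply these transcripts were read beside them. The summed level of 5 hepatocyte markers was 0.220 to 0.662 CPM in the controls and 0 to 0.417 CPM in the GLCC1 siRNA libraries, with TTR and FGB at 0 in every library. The kidney markers summed to 0.241 to 0.661 and 0.559 to 0.795 CPM, with SLC22A6 and UMOD at 0, and the skeletal muscle markers to 1.14 to 1.21 and 0.318 to 1.25 CPM. The markers of leukocytes, fibroblasts and endothelium summed to 12.4 to 15.8 and 7.0 to 9.45 CPM, with PTPRC, DCN and PECAM1 at 0 and COL1A1 lower in the GLCC1 siRNA libraries. Of the 11 markers of colorectal epithelium 7 fell, 1 (CDH17) rose and 3 (VIL1, CDX2 and KRT20) did not pass the test, the call of EPCAM being lost in 8 of 12 alternatives. Their summed level was 5813 to 6350 CPM in the controls and 2485 to 2899 CPM in the GLCC1 siRNA libraries, a difference that lay mostly in the keratins KRT8 (mean 3584 to 1177 CPM), KRT19 (881 to 347 CPM) and KRT18 (423 to 120 CPM). The differentiation marker KRT20 had 3 to 14 counts. Whether this shift had a part in the changes of PCK2, PCK1 and G6PC3 was not tested.

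The genes nearest in pattern to each member were named by the root mean square difference of their log2(CPM + 0.5) values, taken relative to the control mean over the 6 libraries, among 14875 genes that averaged 1 CPM or more. Nearest to PCK2 were NAT16, ATOH8 and PHC2, at 0.060 to 0.063 log2 units. Nearest to G6PC3 was SLC35A2 at 0.020, followed by RAMP1 at 0.052 and GPX2 at 0.054. Nearest to PCK1 were CYP4F2 at 0.044, RP11-690D19.3 at 0.088 and ZHX1 at 0.102. With 6 libraries in 2 groups many genes share such a profile, and the names carry no statement on shared function.

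The calls of the members were stable to the processing tried. PCK2 stayed above the control level and past the threshold in 12 of 12 alternatives, with log2 fold changes of 0.58 to 0.80, and G6PC3 stayed below it in 12 of 12, with -1.45 to -1.14. PCK1 stayed below it in 11 of 11, with -2.33 to -1.59, and it was not tested where 10 counts were required in every library. FBP2 was called in none of its alternatives, and its log2 fold change ran from -0.38 to 0.18.

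**Figure D4:**
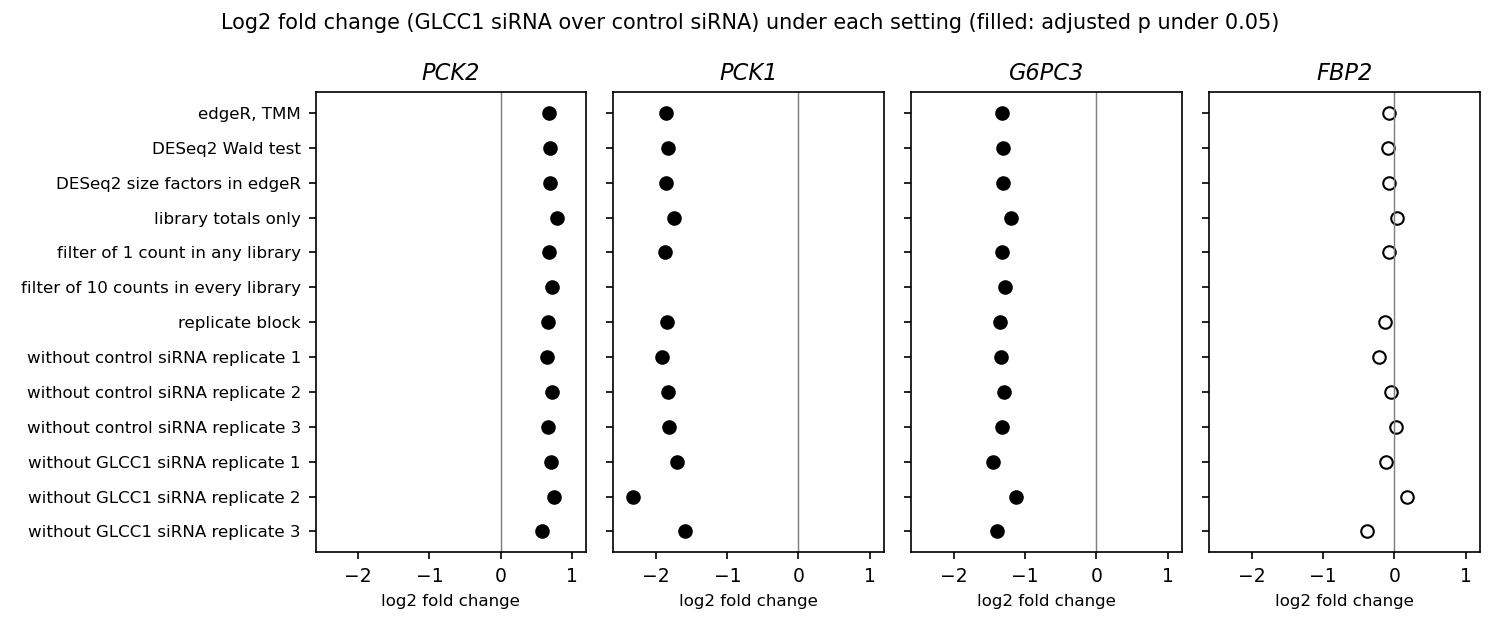
Log2 fold change of GLCC1 siRNA over control siRNA for the 4 tested members under each processing setting, with filled points for an adjusted p under 0.05. PCK2 stays at 0.58 to 0.80, PCK1 at -2.33 to -1.59 and G6PC3 at -1.45 to -1.14, while FBP2 lies on both sides of 0.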

How the data were processed

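The data were RNA-seq counts per gene symbol from 6 libraries, 3 titled control siRNA and 3 titled GLCC1 siRNA. Per the study's methods and the labels, the authors aligned paired reads of a TruSeq library to hg19 with TopHat2 2.0.11. They made the deposited raw counts with HTSeq in union mode, so reads on more than 1 gene were not counted. Such reads were 8.19% to 8.89% of the tallied reads with a unique alignment. The HTSeq version and strand setting are not given in the sources used here. Tally rows were left out of library sizes. Genes with fewer than 5 counts summed in each group were not tested. The rest were tested with edgeR 4.0.16 (TMM, robust quasi-likelihood, Benjamini-Hochberg adjustment over all genes, standard error from the F statistic), with DESeq2 1.42.0 as an alternative. The code was tested on simulated data. Levels per kilobase used the canonical transcript of the lifted GENCODE annotation on hg19, and promoters came from RefSeq. Intervals from depth cover counting error only.

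The members and gene lists were chosen with earlier results of these data known. Beside the 6 members, PC, SLC37A4, PFKL, PFKM, PFKP, ATF4 and FARP1 were always named. From each list of the pathway, up to 3 called genes with the largest rise and 3 with the largest fall were named with values. Their mean was at least 1 CPM. The 3 genes nearest in pattern to each member were named as well. Other called genes are named without values. G6PC2, PPARGC1A, PSAT1, SHMT2, MTHFD2, GK, GPD2, HDAC5, NRL, PCAT7 and single markers were named after their values were seen. Alternatives were another normalization, filter, tool or transcript length, a replicate block, and each library left out. Some results that the naming rule covers are not reported here.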

Additional observations from a re-analysis of the deposited data

How the results depend on the processing

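Depth limited FBP1, FBP2, G6PC and PCK1, and 3 libraries a group cannot give an exact p below 0.1. The calls of PCK2, PCK1 and G6PC3 did not change in any alternative run. FBP2, not called, had a log2 fold change of 0.040 with library totals and ran from -0.378 (without GLCC1 siRNA replicate 3) to 0.178 (without GLCC1 siRNA replicate 2). PC, not called, turned to 0.058 with library totals and ran from -0.159 to 0.081 over the same left-out libraries, and the log2 ratio of fructose-1,6-bisphosphatase to phosphofructokinase ran from -0.375 to 0.137 over them. The cause of these turns was not tested.

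With library totals as the scale, the members that rose were 2 on the shared steps, 2 on the opposing steps, 2 in the glucose-6-phosphatase system, 3 of glycerol and fructose entry and 7 regulators, and those that fell were 2 in the glucose-6-phosphatase system and 0 regulators. With DESeq2, 0 of the glucose-6-phosphatase system and 1 of glycerol and fructose entry rose. With a filter of 1 count in any library, 2 on the opposing steps and 1 of glycerol and fructose entry rose. With a filter of 10 counts in every library, 2 of the latter and 7 regulators rose. Leaving out each library in turn, 1 to 2 on the opposing steps, 0 to 2 in the glucose-6-phosphatase system, 0 to 2 of glycerol and fructose entry and 2 to 7 regulators rose, and 2 to 4 of the glucose-6-phosphatase system and 0 to 4 regulators fell. The highest counts that rose, and the 4 regulators that fell, came without GLCC1 siRNA replicate 2, the smallest library, when 9920 genes of the whole table were called, against 5221 to 6614 without any other library. Without each of the other 5 libraries SLC25A12, SLC37A1, SLC37A3 and INSR lost their calls. SLC37A2 and SIK2 lost theirs without control replicate 1, GPI without control replicate 2, LDHB without control replicate 3, MPC1 and DDIT3 without 3 libraries each (MPC1 GLCC1 siRNA 1, control 2 and 3; DDIT3 GLCC1 siRNA 3, control 1 and 3), HNF4A without any control and FOXA1 without GLCC1 siRNA replicate 3, control 1 or control 2. The difference in the PCK2 share was 1.60 percentage points from counts without length and 0.986 over the union of exons, a length chosen after seeing the data.

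The replicate numbers did not pair the libraries: deviations of same-numbered libraries correlated at -0.323 to -0.0127. With the numbers as a replicate block, 6522 genes were called against 7293, 0 of the glucose-6-phosphatase system rose, 1 of glycerol and fructose entry rose, SLC25A12, SLC37A1, SLC37A3 and INSR lost their calls, and PCK2, PCK1 and G6PC3 were called in the same directions.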
